A study of Mus musculus with 20 samples.

Results

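Unexposed N2A cells, the negative control (NC) of the study, were sequenced in both of its batches, and the libraries of the 2 batches were compared here with each other. N2A is a mouse neuroblastoma line with features of the sympathoadrenal lineage. The 5 unexposed libraries of the 20 in the series were chosen by their labels, 3 from batch 1 (NC batch 1) and 2 from batch 2 (NC batch 2). None of them had been scanned with a laser, so laser exposure is not a difference between them. All cells were grown in DMEM with FBS and penicillin-streptomycin and seeded into wells of glass-bottom plates the day before, and polyA RNA was extracted and prepared with the same kits by the labels. The 3 libraries of I3-E3-SRS, a laser-exposed group of batch 2, were used to see whether a difference ran through the whole batch. They also entered the choice of the named genes and a comparison of exposed cells with 12 laser-exposed libraries of batch 1. I3-E3-SRS cells were imaged by stimulated Raman scattering (SRS) with 2 lasers. The 4 exposed settings of batch 1 used 1 laser, at lower intensity and magnification. In the setting codes, I stands for average intensity and E for energy per area, and larger numbers mean higher values. By the study's methods unexposed cells came from separate wells lysed at the same time, and the labels name no separate cultures. A p-value here therefore reflects only how far these libraries spread, which may be technical. What else differed between the batches (passage, serum, day, extraction, sequencing run) is not given in the labels, so such causes cannot be told apart.

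Several of the genes that separated the batches belong to the sterol, NRF2 and ATF4 pathways, whose workings are given here as background. Cells sense sterols at the endoplasmic reticulum, where SCAP carries the SREBP transcription factors to the Golgi when sterols are low, and INSIG proteins hold the complex back when sterols are plentiful. Released SREBP raises the enzymes of cholesterol and fatty acid synthesis. NRF2 raises genes of the glutathione and thioredoxin systems after oxidative or electrophilic stress, and ATF4 raises genes of amino acid transport and synthesis when translation initiation is restrained.

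The libraries held 6460014 to 8322567 estimated counts in NC batch 1, 5473588 and 8830935 in replicates 1 and 2 of NC batch 2, and 8775615 to 12698770 in I3-E3-SRS. NC batch 2 replicate 1 stood apart from the other libraries. Its log2 CPM values (counts scaled to library size) correlated at 0.962 to 0.965 with the other 4 libraries of batch 2, whereas those of NC batch 2 replicate 2 correlated at 0.987 to 0.988 with I3-E3-SRS. Within NC batch 1 the correlation was 0.982 to 0.987. In the deposited table of NC batch 2 replicate 1 the effective length of long transcripts lay 249 bases under their length, a whole number for 93.4% of transcripts, against at most 0.492% of transcripts in any other library. The counts over all genes and over the main lists are therefore also given without that library, as are the fold changes that it moved most.

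Of 12156 genes tested, 1733 differed between NC batch 2 and NC batch 1, which is 14.3% (edgeR quasi-likelihood test, Benjamini-Hochberg adjusted p under 0.05). In batch 2, 970 genes were higher (7.98%) and 763 were lower (6.28%), and 360 of the 1733 differed by at least 2-fold. The shares of 7.98% and 6.28% are the background for the list counts below. Without NC batch 2 replicate 1 the test called 1683 of 12535 genes (13.4%), with 926 higher (7.39%) and 757 lower (6.04%); the lone remaining library was then assumed to vary like those of NC batch 1. The count depended more on the batch 1 side: it was 835, 462 and 758 without NC batch 1 replicate 1, 2 and 3. These were 7.04%, 3.91% and 6.35% of the genes tested, the background for list counts from those fits. In 3904 of the 12156 genes (32.1%), all 5 libraries of batch 2 lay outside the range of the 3 NC libraries of batch 1 on the same side. This held for 1614 of the 1733 called genes, which is 93.1%. The unexposed libraries also decided which genes were called, so a high share was in part fixed in advance. Fold changes are log2 values with their standard errors, and levels are CPM on one scale over the 8 libraries.

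The batch difference was also measured in libraries that the comparison of unexposed cells did not use. I3-E3-SRS was set against the mean of the 4 exposed settings of batch 1 (I2-E2, I0-E4, I0-E2 and I0-E0, 12 libraries), and 3702 of 12403 genes were called (29.8%), 1895 higher (15.3%) and 1807 lower (14.6%). Batch and laser setting cannot be told apart in that comparison. Of 12049 genes tested in both, 1442 were called in the same direction in both and 1 in opposite directions. The shared calls were 84.2% of the 1712 called in unexposed cells and 39.8% of the 3624 called in exposed cells. Across the 9155 of these genes with a mean of at least 10 CPM, which are not independent replicates, the log2 fold changes correlated at r = 0.82.

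**Figure D1:**
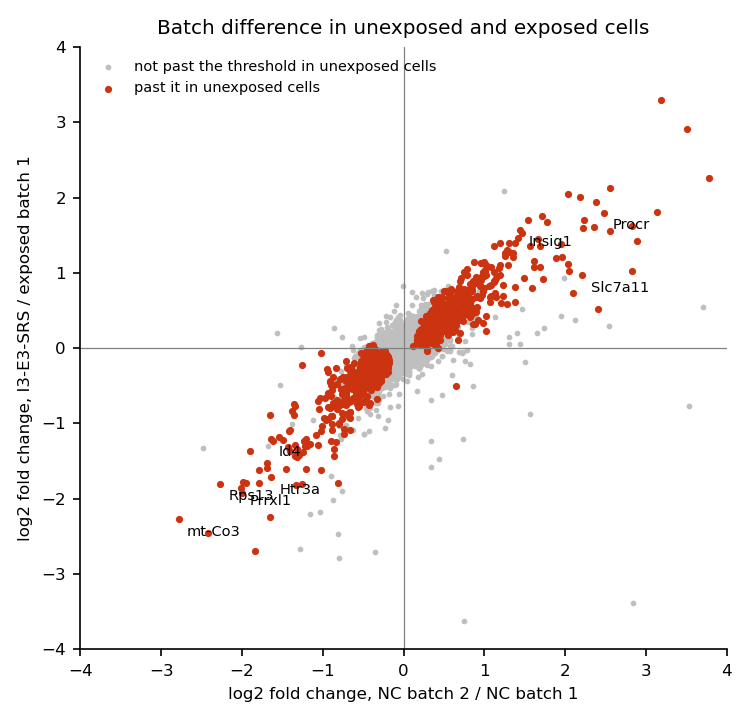
Log2 fold change between batches in unexposed cells (x axis, 2 NC batch 2 against 3 NC batch 1 libraries) and in exposed cells (y axis, 3 I3-E3-SRS against 12 exposed batch 1 libraries) for 9155 genes with a mean of at least 10 CPM. Red points passed the threshold in unexposed cells; they lie along the diagonal, and 48 genes fall outside the plotted range of -4 to 4.

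Genes of the cholesterol synthesis list formed the group with the most uniform difference. Of 25 genes on the list, 24 were tested, all 24 lay above 0, and 22 rose in batch 2 while none fell, with a median of 1.12 against a median of -0.000991 over all genes tested. The same 22 to 0 count was obtained without NC batch 2 replicate 1 (median 1.24), and in the exposed libraries 23 of 24 rose (median 1.02). Without any one of the NC batch 1 libraries 21 rose. Regulators of the pathway moved with its enzymes. Insig1, which retains the SREBP complex in the endoplasmic reticulum, was at 77.8, 72.9 and 75.3 CPM in NC batch 1, at 199 and 210 CPM in NC batch 2 and at 184 to 226 CPM in I3-E3-SRS. The groups were far apart and each was tight, and the fold change was 1.44 (standard error 0.05, adjusted p = 1.06e-04). Srebf2, the SREBP gene that serves sterol synthesis, was at 198 to 239 CPM in NC batch 1 and at 390 and 431 CPM in NC batch 2, a fold change of 0.90 (standard error 0.09).

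Msmo1, a methylsterol oxidase, had the largest fold change on the list, from 41.5 to 45.2 CPM in NC batch 1 to 112 and 180 CPM in NC batch 2 (1.77, standard error 0.18). Enzymes of earlier steps rose as well. Hmgcs1, which makes HMG-CoA, was at 97.8 to 111 CPM and rose to 226 and 295 CPM (1.31, standard error 0.11). Mvd, Fdps, Sqle and Lss, which act between mevalonate and lanosterol, had fold changes of 1.47, 1.28, 0.98 and 1.38. In most of these genes NC batch 2 replicate 1 was lower than replicate 2, so leaving it out raised the estimates, to 1.49 for Hmgcs1 and 2.06 for Msmo1.

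The pair of listed genes that did not pass were Ebp, a sterol isomerase (17.7 to 18.4 CPM in NC batch 1 against 19.4 and 21.7 CPM, adjusted p = 0.303), and Tm7sf2, a sterol reductase at 2.95 to 6.06 CPM against 7.72 and 7.73 CPM (adjusted p = 0.162). The 95% interval of the difference was -0.08 to 0.45 for Ebp and -0.01 to 1.40 for Tm7sf2. Per length, levels in NC batch 1 ranged widely, with Fdps at 103 TPM (the authors' values summed over transcripts) and Tm7sf2, the lowest of the list, at 7.64 TPM. In NC batch 2 replicate 1 TPM did not follow the counts. Dhcr7, the last reductase of the pathway, was at 256 TPM there against 88.3 TPM in NC batch 2 replicate 2, although its CPM values were 93.9 and 112, so fold changes were taken from counts only.

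Promoter sequences of these genes are shown because the members moved together. They are RefSeq sequences of build GRCm38.p6, from 250 bases before to 50 bases after the start of the gene, and 17 of the 25 listed genes had at least 1. A gene was counted if any of its promoters held a match. Capitals mark matches on either strand to the sterol regulatory element TCACNCCAC and to CCAAT, the box bound by NF-Y, a factor with which SREBP is known to act. The first was found in 1 of the 17 genes, Hmgcs1, against 1.44% of all genes in the table (1.24% of its 32851 promoters), and CCAAT in 16 of 17 against 41.1% of all genes (37.4% of promoters). A match is a description of these letters and not a site of binding. In Hmgcs1 (chr13:119690101-119690400, plus strand) the sterol element began 137 bases before the gene start, and in Insig1 (chr5:28071162-28071461, plus strand) the CCAAT match began 216 bases before it.
Hmgcs1: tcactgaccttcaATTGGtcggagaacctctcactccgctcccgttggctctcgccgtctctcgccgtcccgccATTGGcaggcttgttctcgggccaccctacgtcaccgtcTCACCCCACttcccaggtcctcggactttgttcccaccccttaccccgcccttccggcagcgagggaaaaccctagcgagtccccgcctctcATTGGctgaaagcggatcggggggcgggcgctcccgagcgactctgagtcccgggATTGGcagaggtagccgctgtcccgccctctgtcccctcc
Insig1: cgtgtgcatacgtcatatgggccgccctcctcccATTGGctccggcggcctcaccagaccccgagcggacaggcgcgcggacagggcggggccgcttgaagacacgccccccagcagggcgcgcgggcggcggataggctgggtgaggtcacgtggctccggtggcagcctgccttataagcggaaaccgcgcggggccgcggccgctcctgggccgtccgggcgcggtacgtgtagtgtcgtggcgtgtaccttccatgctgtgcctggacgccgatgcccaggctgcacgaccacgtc

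Fatty acid synthesis genes rose with them. Of 15 tested, all lay above 0 and 9 rose, with a median of 0.34, and 11 rose without NC batch 2 replicate 1. The count was 6, 5 and 5 without NC batch 1 replicate 1, 2 and 3. Scd2, a stearoyl-CoA desaturase, was at 734, 684 and 638 CPM in NC batch 1 and at 1287 and 1492 CPM in NC batch 2 (1.02, standard error 0.08). Scd1, its low-level paralog, was at 3.26 to 5.22 CPM and rose to 24.8 and 16.9 CPM (2.19, standard error 0.25). Fads2, a fatty acid desaturase, Srebf1, the SREBP gene that serves lipogenesis, and Acly, which makes cytosolic acetyl-CoA, rose by 0.96, 0.75 and 0.46. Lpin1, a phosphatidate phosphatase outside the lists, was at 14.9 to 19.8 CPM in NC batch 1 and at 47.4 and 56.7 CPM in NC batch 2 (1.54, standard error 0.14). Aacs, which activates acetoacetate for lipid synthesis, rose from 34.9 to 37.4 CPM to 82.0 and 95.04 CPM (1.297, standard error 0.08, adjusted p = 5.64e-04). I3-E3-SRS was at 48.9 to 54.8 CPM for Lpin1 and 66.7 to 100.4 CPM for Aacs. That it lay on the side of NC batch 2 was required by the choice of these genes.

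**Figure D2:**
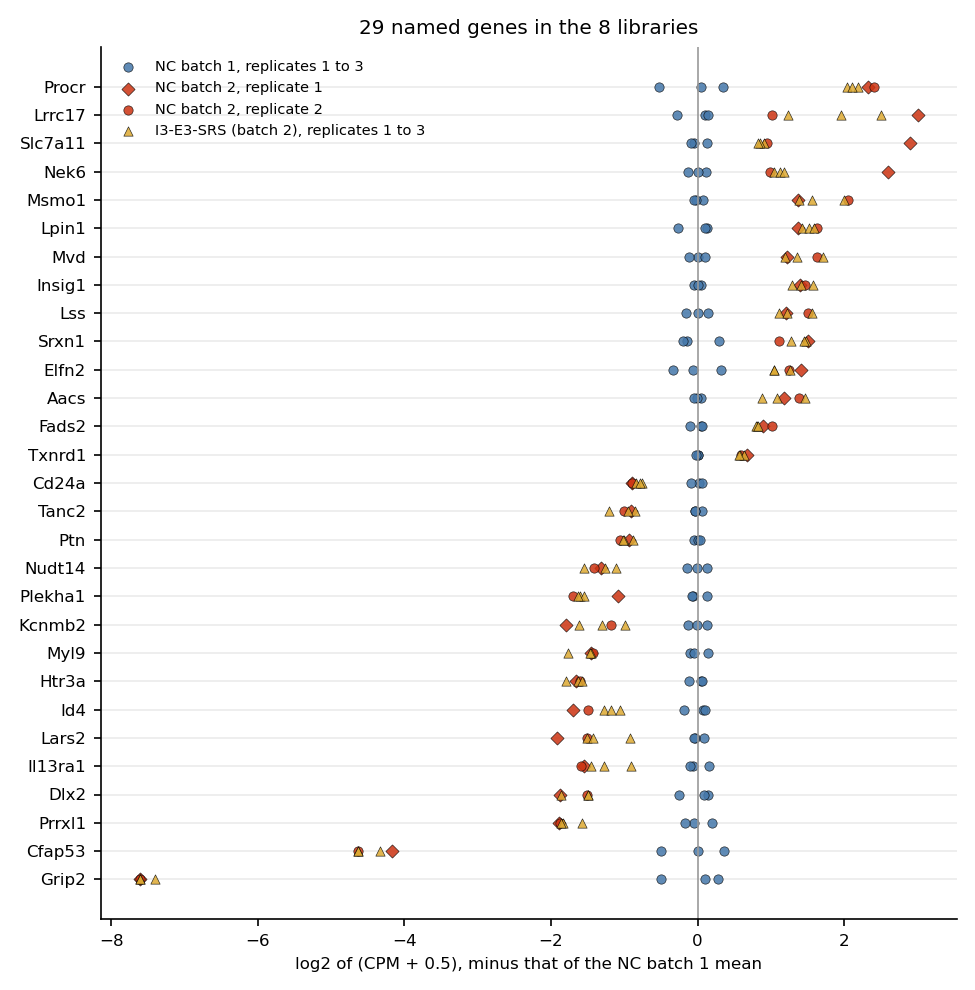
Level of 29 named genes in each of 8 libraries, as log2(CPM + 0.5) minus that of the NC batch 1 mean (x axis). In each gene the 2 NC batch 2 libraries (red) and the 3 I3-E3-SRS libraries (yellow) lie on the same side of the 3 NC batch 1 libraries (blue), which the choice of genes required, and in Slc7a11 and Nek6 NC batch 2 replicate 1 (diamond) lies far from the other batch 2 libraries.

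Targets of NRF2 were higher in batch 2 as well. Of 27 tested, 18 rose and none fell, with a median of 0.37, and 19 rose without NC batch 2 replicate 1 (median 0.44). In the exposed libraries 21 of 27 rose. The count was 15, 11 and 12 without NC batch 1 replicate 1, 2 and 3. Txnrd1, the cytosolic thioredoxin reductase, was at 410, 410 and 401 CPM in NC batch 1 and at 650 and 613 CPM in NC batch 2, with 605 to 630 CPM in I3-E3-SRS. The spread within each group was a small part of the distance between them, and the fold change was 0.63 (standard error 0.05, adjusted p = 8.53e-04). Srxn1, which reduces oxidised peroxiredoxins, was at 7.76 to 11.2 CPM against 26.5 and 20.01 CPM (1.35, standard error 0.20). Hmox1, heme oxygenase 1, rose from 44.1 to 49.2 CPM to 87.1 and 79.7 CPM (0.83, standard error 0.08). G6pdx, which supplies NADPH through the pentose phosphate pathway, Sqstm1, an autophagy receptor, and Fth1, the ferritin heavy chain, rose by 0.77, 0.75 and 0.55.

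Slc7a11, the cystine importer of the glutathione pathway, depended on 1 library for its size. It was at 43.4, 38.3 and 37.1 CPM in NC batch 1, at 298 CPM in NC batch 2 replicate 1, at 77.1 CPM in replicate 2 and at 70.8 to 74.5 CPM in I3-E3-SRS. All batch 2 libraries were above NC batch 1, as the choice of the gene required, but only NC batch 2 replicate 1 was several-fold above. The fold change was 2.21 (standard error 0.48) with that library and 0.96 without it. The gene did not pass in 4 of 18 alternatives, which were limma-voom and the omission of each NC batch 1 library, and the same held for Nek6 and Lrrc17. Nek6, a mitotic kinase, was alike, with 7.40 to 8.86 CPM in NC batch 1, 52.1 CPM in NC batch 2 replicate 1 and 16.7 to 19.1 CPM in the other batch 2 libraries (2.05, and 1.04 without it). Lrrc17, a secreted leucine-rich repeat protein, was at 5.34 to 7.30 CPM in NC batch 1, 56.3 and 13.8 CPM in NC batch 2 and 16.2 to 39.6 CPM in I3-E3-SRS (2.39, and 1.08 without replicate 1).

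The ATF4 list of the integrated stress response had 15 of 39 genes higher and none lower, with a median of 0.19, and 37 of the 39 lay above 0. Without NC batch 2 replicate 1, 17 rose, and in the exposed libraries 29 of 39 rose (median 0.20). The count fell to 9, 4 and 9 without NC batch 1 replicate 1, 2 and 3, so fewer of these smaller differences than of the sterol genes passed with 2 NC batch 1 libraries. Ddit4, an inhibitor of mTORC1, was at 55.4, 44.3 and 53.6 CPM in NC batch 1 and at 109 and 124 CPM in NC batch 2, with 109 to 136 CPM in I3-E3-SRS. Its groups did not overlap, and the fold change was 1.19 (standard error 0.10, adjusted p = 0.00145). Sesn2, a leucine sensor that also restrains mTORC1, and Chac1, which degrades glutathione, rose by 1.00 and 0.92 (standard errors 0.11 and 0.14). Atf4 itself rose from 544 to 571 CPM to 679 and 742 CPM (0.35, standard error 0.05).

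For the stress lists, 24 of the 29 NRF2 genes and 33 of the 41 ATF4 genes had a RefSeq promoter. The core of the antioxidant response element, TGACNNNGC on either strand, was found in 9 of the 24 genes against 13.99% of all genes (12.4% of promoters), and 6 of the 9 rose. A part of the C/EBP-ATF element, TGATGNAA on either strand, was found in 10 of 33 genes against 4.51% of all genes (3.97% of promoters), and 4 of the 10 rose. Over the whole lists 18 of 27 NRF2 and 15 of 39 ATF4 genes tested rose, which are similar shares. Txnrd1 (chr10:82858956-82859255, plus strand, the 1 of its 3 promoters with a match) and Chac1 (chr2:119350992-119351291, plus strand) are shown with the match in capitals, 92 and 193 bases before the start.
Txnrd1: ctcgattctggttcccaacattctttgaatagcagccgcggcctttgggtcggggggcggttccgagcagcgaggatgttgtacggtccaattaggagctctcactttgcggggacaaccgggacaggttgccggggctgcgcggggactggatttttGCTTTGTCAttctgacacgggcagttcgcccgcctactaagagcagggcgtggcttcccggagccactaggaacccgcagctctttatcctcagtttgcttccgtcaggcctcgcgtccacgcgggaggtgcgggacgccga
Chac1: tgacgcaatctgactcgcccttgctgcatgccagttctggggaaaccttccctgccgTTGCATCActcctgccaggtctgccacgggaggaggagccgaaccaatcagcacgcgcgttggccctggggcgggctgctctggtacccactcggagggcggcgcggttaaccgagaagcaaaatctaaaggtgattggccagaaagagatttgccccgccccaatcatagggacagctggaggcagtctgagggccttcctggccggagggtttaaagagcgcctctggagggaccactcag

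Chaperones went the other way, by small amounts. Of 24 unfolded protein response genes tested, 6 fell and none rose (median -0.16), and of 23 heat shock genes 9 fell and 2 rose (median -0.15). Over all genes tested 6.28% fell and 7.98% rose. Hsp90b1, the endoplasmic reticulum form of HSP90, was at 1092, 1103 and 1110 CPM in NC batch 1 and at 870 and 864 CPM in NC batch 2, with 827 to 878 CPM in I3-E3-SRS. The libraries of a batch differed by little, and the fold change was -0.35 (standard error 0.04, adjusted p = 0.00285). Calr and Canx, the lectin chaperones, and Hspa5, the BiP chaperone, fell by 0.34, 0.28 and 0.25. Hsph1, a cytosolic HSP110, was at 468 to 496 CPM against 373 and 356 CPM (-0.40, standard error 0.05), and Hspd1, the mitochondrial HSP60, fell by 0.30, a value that is uncertain because only 46.9% of its 31-base words are its own. The 2 heat shock genes that rose were Hsp90ab1 and Bag3, by 0.11 and 0.23. Without NC batch 2 replicate 1 the counts were 6 lower and 1 higher in the first list and 9 lower and 3 higher in the second. Without NC batch 1 replicate 1, 2 and 3 they were 5, 2 and 4 lower in the first and 6, 3 and 6 lower in the second. With a trend on GC content removed (limma-trend) 4 fell in each list and none rose, against 7 and 9 lower in limma-trend without that step, and Canx was at -0.15 and did not pass.

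**Figure D3:**
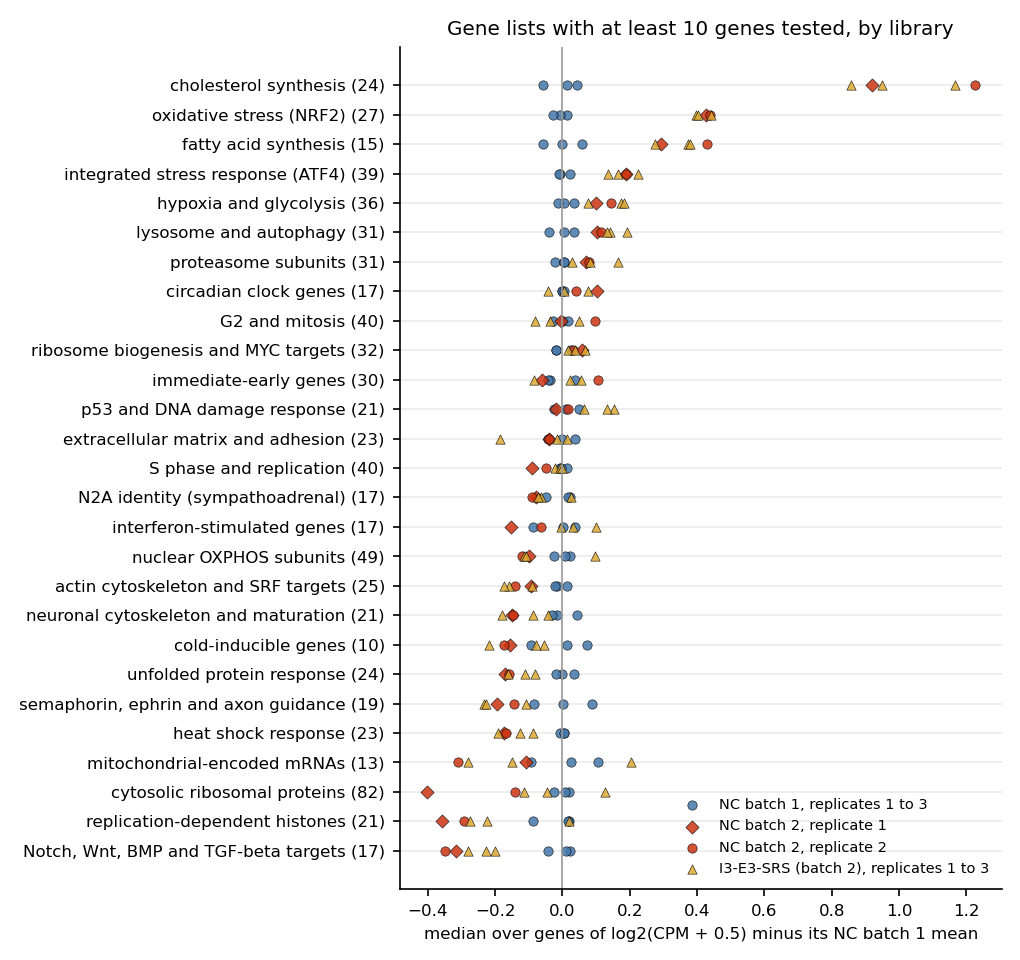
Median over the genes of each list of log2(CPM + 0.5) minus its NC batch 1 mean (x axis), for 27 lists with at least 10 genes tested (number in brackets), in each of 8 libraries. In the cholesterol list the NC batch 2 medians are 0.92 and 1.22, in the NRF2 list 0.43 and 0.44, and in the ribosomal protein list -0.40 and -0.14. In the ribosomal protein list the I3-E3-SRS medians are -0.11 to 0.13.

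Neural genes differed in both directions. Among 17 tested genes of sympathoadrenal identity, 5 fell and 1 rose, with a median of -0.05. Over all genes tested 6.28% fell and 7.98% rose, so the share that rose lay near the background. The summed level of the 22 listed markers was 3031 to 3195 CPM in NC batch 1 and 3120 and 3040 CPM in NC batch 2. Highly expressed members such as Ret, at 844 to 913 CPM in NC batch 1, weigh most in this sum. It therefore does not describe the lower members. Of the 22 markers 2, Tlx2 among them, were at 0 in all 8 libraries. Dbh, which makes noradrenaline, was at 43.9, 45.6 and 37.0 CPM in NC batch 1 and at 18.4 and 18.2 CPM in NC batch 2, with 17.2 to 19.6 CPM in I3-E3-SRS (-1.21, standard error 0.12). The transcription factors Isl1, Gata3 and Mycn fell by 0.88, 0.73 and 0.53, while Insm1, a zinc-finger factor of neuroendocrine cells, rose from 103 to 116 CPM to 180 and 163 CPM (0.65, standard error 0.07). Among 21 genes of the neuronal cytoskeleton and of maturation, 4 rose and 6 fell, and 3 rose and 4 fell without NC batch 2 replicate 1. Tubb3, neuronal beta-tubulin, and Nefh, the heavy neurofilament, rose by 0.44 and 0.53, and the microtubule-associated Map1b and the RNA-binding Elavl4 fell by 0.36 and 0.48. Without NC batch 1 replicate 2 the counts were 3 lower and 1 higher in the identity list, and without replicate 1 or replicate 2 they were 3 lower and 2 higher in the neuronal list.

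Htr3a, a subunit of the serotonin-gated channel, was at 172, 174 and 155 CPM in NC batch 1, at 52.5 and 54.5 CPM in NC batch 2 and at 47.8 to 55.7 CPM in I3-E3-SRS. All 5 batch 2 libraries lay close together, and the fold change was -1.64 (standard error 0.07, adjusted p = 2.17e-04). The homeodomain genes Prrxl1 and Dlx2 were low in both batches and lower in batch 2. Prrxl1 was at 14.1 to 18.4 CPM against 3.95 and 3.98 CPM (-2.01, standard error 0.19), and Dlx2 at 9.09 to 12.1 CPM against 2.63 and 3.52 CPM (-1.80, standard error 0.24). Kcnmb2, a subunit of the BK potassium channel, fell by 1.49 (-1.22 without NC batch 2 replicate 1) and Il13ra1, an interleukin receptor subunit, by 1.70. Ptn, the growth factor pleiotrophin, was at 115, 118 and 122 CPM in NC batch 1 and at 61.3 and 56.4 CPM in NC batch 2 (-1.01, standard error 0.06). Tanc2, a postsynaptic scaffold protein, fell by 0.96, and Cd24a, a glycosylated surface protein, fell by 0.89, from 284 to 316 CPM to 163 CPM in both NC batch 2 libraries.

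Targets of Notch, Wnt, BMP and TGF-beta signalling had 6 of 17 genes lower and none higher, with a median of -0.38. The background over all genes tested was 6.28% lower and 7.98% higher. Id genes, which encode inhibitors of basic helix-loop-helix factors and respond to BMP, were among them. Id4 was at 24.3, 24.7 and 20.2 CPM in NC batch 1, at 6.77 and 7.84 CPM in NC batch 2 and at 9.21 to 10.8 CPM in I3-E3-SRS (-1.65, standard error 0.16). Id2 and Id3 fell by 0.51 and 0.35, and Skil, a repressor of SMAD signalling, by 0.43. The count was 5 without NC batch 2 replicate 1 and 4, 3 and 4 without NC batch 1 replicate 1, 2 and 3. Of 19 genes of axon guidance, 5 fell, with Plxna4, a semaphorin co-receptor, at -0.59 and Slit3, a secreted guidance cue, at -0.55. The count was 2 lower and 1 higher without NC batch 1 replicate 1, 2 lower without replicate 2 and 3 lower without NC batch 2 replicate 1.

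Procr, the endothelial protein C receptor, had the highest fold change among protein-coding genes with a mean of at least 5 CPM and at least 95% of 31-base words of their own. It was at 6.19, 3.15 and 4.97 CPM in NC batch 1, at 26.0 and 27.5 CPM in NC batch 2 and at 21.2 to 23.5 CPM in I3-E3-SRS. The batch 2 libraries were close to each other, and the fold change was 2.49 (standard error 0.24, adjusted p = 0.00185). Elfn2, a synaptic leucine-rich repeat protein, rose from 10.1 to 16.3 CPM to 35.0 and 31.3 CPM (1.35, standard error 0.19). Lower were Nudt14, a nucleoside diphosphate sugar hydrolase (-1.40, from 27.9 to 33.9 CPM to 12.04 and 11.3 CPM), Plekha1, a phosphoinositide-binding adaptor (-1.45, and -1.77 without NC batch 2 replicate 1), and Myl9, a myosin light chain (-1.56). In the matrix and adhesion list 4 of 23 genes rose and 6 fell, against 7.98% and 6.28% of all genes tested. Its basement membrane collagen Col4a2 was at 0.74 and its membrane protease Mmp15 at -0.78.

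Other lists changed less or in both directions, where the background over all genes tested was 7.98% higher and 6.28% lower. Of 36 genes of hypoxia and glycolysis 11 rose and 2 fell, with Slc16a3, a lactate exporter, from 134 to 141 CPM to 212 and 196 CPM (0.56, standard error 0.06). Of 31 lysosome and autophagy genes 7 rose, among them Gabarapl1, an autophagosome protein (0.59), and none fell. Of 17 interferon-stimulated genes 3 rose and 2 fell, and the class I genes H2-D1 and H2-K1, which share words with other class I genes, rose by 0.85 and 0.79. Among 30 immediate-early genes 5 rose and 2 fell, and Jun and Myc rose by 0.72 and 0.41. Fos was at 6.21 to 7.03 CPM in NC batch 1 and at 1.51 and 2.39 CPM in NC batch 2 (-1.69, standard error 0.29). In I3-E3-SRS Fos was at 3.46 to 5.73 CPM, between the NC groups, and its difference in the exposed libraries was -0.56. The replication and mitosis lists, of 40 genes each, had 3 higher and 4 lower, and 5 higher and 4 lower, so their shares lay near the background, with Cdt1, a licensing factor, at 0.39 and Mki67, a proliferation marker, at -0.23. Of 10 cold-inducible genes 4 fell and none rose, with the splicing factor Tra2a at -0.57. Of 21 p53 and damage genes 2 rose and 2 fell, shares also near the background, with Phlda3, an inhibitor of AKT, at 0.74. These counts were smaller with 2 NC batch 1 libraries: without replicate 1, 2 and 3 of NC batch 1 the hypoxia list had 7, 5 and 8 higher, the lysosome list 5, 3 and 5 higher, the immediate-early list 4, 2 and 4 higher and the cold-inducible list 3, 1 and 1 lower. With the GC trend removed the lysosome list had 4 higher and 1 lower, the immediate-early list 3 higher and 3 lower and the cold-inducible list 2 lower. Without NC batch 2 replicate 1 no interferon-stimulated gene was called lower, and 8 genes of the mitosis list were called higher.

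Markers of other cell types were near 0. Of the 8 epithelial and 6 erythroid markers none passed the filter on low counts, and 5 and 4 of them were at 0 in all 8 libraries. The 9 fibroblast markers summed to 5.34 to 8.23 CPM in NC batch 1 and to 2.82 and 3.07 CPM in NC batch 2. Pdgfra, a growth factor receptor at 3.03 to 4.04 CPM against 1.32 and 1.2505 CPM, fell by 1.46. It did not pass in 8 of 16 alternatives. The 7 endothelial markers summed to 11.6 to 13.7 CPM against 12.98 and 11.7 CPM, and the 10 glial markers to 9.46 to 13.8 CPM against 7.15 and 5.00 CPM, with no gene of either list passing. The 10 macrophage markers summed to 0.849 to 1.71 CPM in NC batch 1 and to 7.15 and 3.64 CPM in NC batch 2. Most of the latter was 1 gene, Csf1r, the receptor of macrophage colony-stimulating factor, at 0 in NC batch 1 and at 6.59 and 2.96 CPM in NC batch 2. All its reads were on 1 transcript, of whose 31-base words 82.0% occur in no other gene, and Adgre1, Lyz2, C1qa and C1qb were at 0 in all 8 libraries. In bulk libraries fewer cells of a type and less RNA per cell cannot be told apart.

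Some genes and their copies moved in opposite directions. To describe this, genes were classed by the share of the 31-base words of their transcripts that occur in no other gene. Among 909 genes under 50%, 23.1% were called and 14.6% were called with at least a 2-fold difference, against 12.9% and 1.20% of the 7568 genes with at least 95%. Tested on their own, 1664 of those 7568 genes were called (22.0%), so the shares called depend on which genes enter the fit. With the counts of genes that share most words summed, 2156 of 11614 were called (18.6%). Pseudogenes were called in 130 of 472 cases (27.5%), 98 of them higher in batch 2. The transcripts are listed in one order in the files of batch 1 and in another in those of batch 2, and whether the batches were quantified in the same way was not tested.

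**Figure D4:**
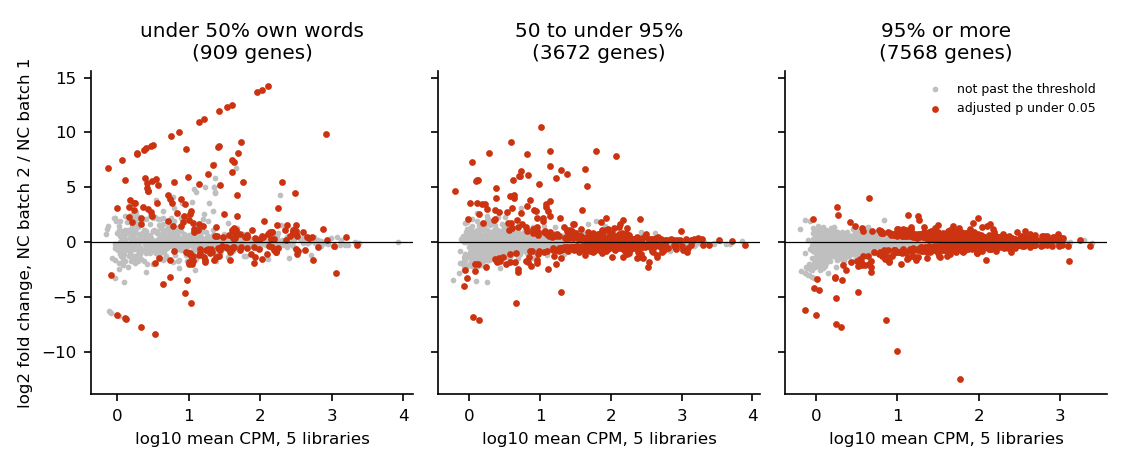
Log2 fold change of NC batch 2 over NC batch 1 (y axis) against log10 of the mean CPM over the 5 libraries (x axis), for genes with under 50%, 50 to under 95% and at least 95% of 31-base words of their own. The 210, 545 and 978 genes past the threshold are red, and 54, 34 and 12 of them differ by at least 16-fold.

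The clearest pair was mt-Co3 (chrM:8607-9390), a subunit of cytochrome c oxidase encoded by mitochondrial DNA, and Gm28437 (chr1:24613189-24613971), a nuclear pseudogene that matches it in all 783 bases compared. mt-Co3 was at 1965, 1647 and 1659 CPM in NC batch 1 and at 246 and 264 CPM in NC batch 2. Gm28437 was at 0.155 to 5.82 CPM in NC batch 1 and at 2138 and 2019 CPM in NC batch 2. Taken alone the gene fell by 2.78 and the copy rose by 9.84, but their sum was 1653 to 1965 CPM against 2383 and 2283 CPM, a fold change of 0.41 (standard error 0.07, adjusted p = 0.00184).

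Rps13, a ribosomal protein gene on chromosome 7, and its processed copy Rps13-ps2 behaved alike, and the first 90 coding bases of both are shown because they do not differ. Both genes lie on the minus strand of GRCm38, at chr7:116331505-116334195 and chr7:88530446-88530898, and the 453 bases of the copy match the coding sequence throughout.
Rps13: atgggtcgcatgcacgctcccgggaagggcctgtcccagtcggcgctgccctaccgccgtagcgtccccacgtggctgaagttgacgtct
Rps13-ps2: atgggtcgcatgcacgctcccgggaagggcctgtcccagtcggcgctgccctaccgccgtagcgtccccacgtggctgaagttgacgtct
Rps13 was at 488, 504 and 496 CPM in NC batch 1 and at 67.9 and 135 CPM in NC batch 2. Rps13-ps2 was at 0 in NC batch 1 and at 376 and 277 CPM in NC batch 2, at least 2495-fold higher against a floor of 3 counts over the group. Summed over the 6 genes of the family, levels were 489 to 507 CPM against 444 and 412 CPM, a fold change of -0.22 (standard error 0.05).

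**Figure D5:**
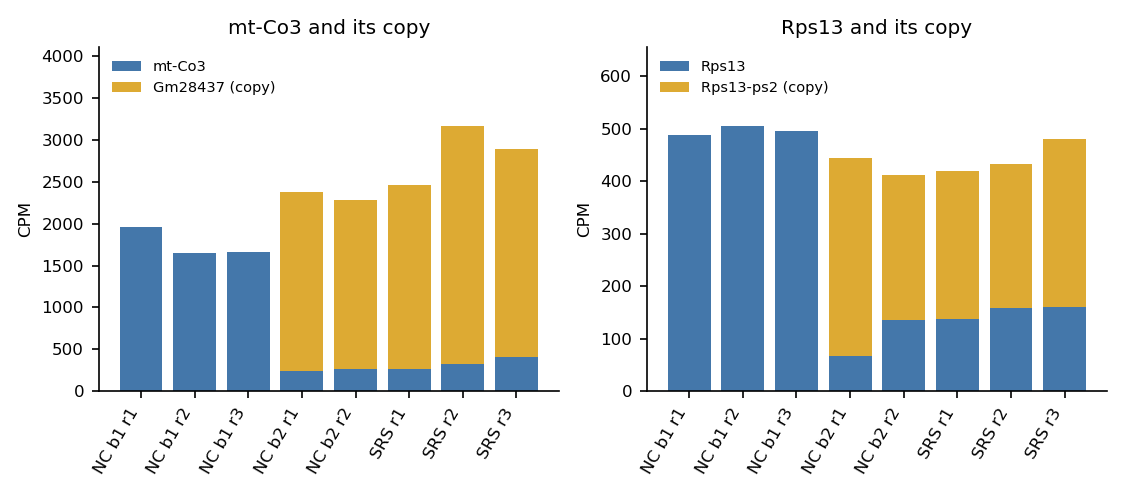
CPM (y axis, from 0) of mt-Co3 and its nuclear copy Gm28437 (left) and of Rps13 and its copy Rps13-ps2 (right), stacked, in 3 NC batch 1, 2 NC batch 2 and 3 I3-E3-SRS libraries. In batch 1 nearly all reads are on the gene and in batch 2 most are on the copy, while the stacked heights differ far less.

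Cytosolic ribosomal proteins, a family with many processed copies, had a median near 0 once copies were summed. By gene, 24 of 82 fell and 6 rose, with a median of -0.24. The median by library was -0.40 and -0.14 in NC batch 2 and -0.11 to 0.13 in I3-E3-SRS, so it did not fall in every batch 2 library. Rps23, Rpl5, Rpl10a and Rps26, of whose words 49.6% to 79.8% are their own, had uncertain values of -1.79, -1.32, -0.91 and -0.89. Without NC batch 1 replicate 1, 2 and 3 the counts were 17, 14 and 15 lower and 1, 1 and 3 higher, and without NC batch 2 replicate 1 and 2 they were 32 and 44 lower and 11 and 11 higher. Summed over genes that share most of their words, 14 of 82 fell and 17 rose, with a median of 0.01. The sterol and stress lists did not change in this way. In the summed counts 22 of 24 cholesterol genes, 10 of 15 fatty acid genes, 20 of 27 NRF2 genes and 21 of 39 ATF4 genes rose and none of them fell, while 8 of 24 unfolded protein response genes fell and 1 rose, and 12 of 23 heat shock genes fell and 3 rose. Of 49 nuclear genes of oxidative phosphorylation 8 fell and none rose by gene, against 6.28% lower over all genes tested. Their median was -0.10, and -0.11 without NC batch 2 replicate 1. Omitting NC batch 1 replicate 1, 2 and 3 left 5, 2 and 2 lower. In the summed counts 13 fell and 2 rose of 50 families. Cox7c, a small subunit of cytochrome c oxidase, was at 179 to 210 CPM against 87.1 and 130 CPM (-0.83, standard error 0.16, and -0.57 without NC batch 2 replicate 1). Its value is uncertain because only 75.5% of its words are its own, and in the exposed libraries it was -0.48. For the 13 mitochondrial mRNAs the median by library was -0.11 and -0.31 in NC batch 2 and -0.28 to 0.20 in I3-E3-SRS. Of the 13, 2 fell, with a median of -0.17 (-0.31 without NC batch 2 replicate 1). The 2 were mt-Co3, which rose by 0.41 once summed with its copy, and mt-Nd6, a subunit of complex I. The latter went from 423 to 514 CPM to 292 and 225 CPM (-0.82, standard error 0.13). In the exposed libraries 4 of the 13 were higher and 2 lower (median 0.13).

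Grip2, Gm19220 and Cfap53 lost nearly all reads in batch 2 although they share almost no words with other genes. Grip2, a PDZ scaffold protein that binds AMPA receptors, was at 69.0, 104 and 119 CPM in NC batch 1, at 0 in both NC batch 2 libraries and at 0 to 0.0804 CPM in I3-E3-SRS. It was at least 458-fold lower in NC batch 2, against a floor of 3 counts over the group. All its batch 1 reads were on the transcript Grip2-204, which held 569 to 860 estimated counts in NC batch 1 and 0 in each of the 5 batch 2 libraries. Gm19220, a processed pseudogene on chromosome 12, was at 12.9 to 20.4 CPM and at 0, at least 78.1-fold lower in NC batch 2. The few shared words of Grip2-204 and of Gm19220 are shared with each other and with Gm26822 and Zrsr1. Cfap53, a cilium protein, held 272 counts in NC batch 1 and 1 count in NC batch 2, a ratio of 167 with a counting interval of 29.8 to 6635. Lars2, the mitochondrial leucyl-tRNA synthetase, was at 1904, 1752 and 1743 CPM in NC batch 1 and at 474 and 635 CPM in NC batch 2 (-1.70, standard error 0.12). The reads that it lost were those of 1 transcript, Lars2-209, with 10779 to 15018 estimated counts in NC batch 1 and 2010 to 7162 in the batch 2 libraries, whereas Lars2-201 held 428 to 666 and 290 to 1130. Nphs1, which encodes the slit-diaphragm protein nephrin of kidney podocytes, went the other way, from 0.121, 0.485 and 0.932 CPM in NC batch 1 to 253 and 59.1 CPM in NC batch 2 and 80.7 to 108 CPM in I3-E3-SRS. Its fold change was 8.27 (standard error 0.90), or 6.90 without NC batch 2 replicate 1, and 88.1% of its words are its own.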

How the data were processed

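PolyA RNA of N2A cells was sequenced in 20 libraries. The authors quantified transcripts with Salmon (version and transcript release not given in the sources used here), and the deposited files hold estimated counts and TPM for 107368 transcripts each. Of these, 98.7% matched the annotation used here (GENCODE vM21, GRCm38), and the unmatched ones held 0.634% to 0.719% of the counts. Estimated counts were summed over 34162 genes and rounded. The deposited TPM values, scaled to transcript length and depth, served only to order levels within the cholesterol list.

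Groups were taken from the labels. NC batch 2 and NC batch 1 were compared with edgeR 4.0.16 (R 4.3.3) on the 5 unexposed libraries: filterByExpr with a minimum count of 10, TMM scaling, the quasi-likelihood test and Benjamini-Hochberg adjustment over all genes tested, at a threshold of 0.05. The exposed comparison was fitted on 15 libraries in the same way. CPM values were scaled over 8 libraries. Words of 31 bases were counted over all annotated transcripts, and genes sharing at least 50% of their words were summed as families, an alternative chosen after seeing the data. Alternatives used limma 3.58.1 and DESeq2 1.42.0, other scalings, filters and fits, a replicate block and the omission of each library. Replicate numbers recur in both batches, and the labels do not say that a number pairs libraries. Deviations of same-numbered libraries correlated at -0.08 and 0.00. With 2 libraries in NC batch 2 these values cannot decide whether the numbers pair samples. On simulated counts for this comparison (12156 genes, 250 changed per fold size), 4.4%, 47.2%, 69.2% and 91.6% of genes changed by 1.25-, 1.5-, 2- and 4-fold were recovered, and 11.2% of the calls were false. Counting intervals are exact at 95% and, like floors, cover counting error only.

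The genes named were, among called protein-coding genes with a mean of at least 5 CPM, at least 95% of words of their own and all batch 2 libraries on one side of NC batch 1, the 12 highest and 12 lowest fold changes and the 3 smallest p-values per direction beyond these, up to 4 genes per list by p-value, and the highest and lowest among genes failing only on biotype, symbol or shared words. Other pathway members, Gm28437, Rps13, Nphs1 and Trappc8 were chosen after their values were seen. The members and lists were chosen with earlier results of these data known. Figures were drawn with matplotlib 3.10.9. Some genes that the rule names are not reported here.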

Additional observations from a re-analysis of the deposited data

Results flagged for a closer look

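The batch difference of 1 gene differed between unexposed and exposed cells. Trappc8, a subunit of a vesicle-tethering complex, was at 3.03, 5.82 and 1.40 CPM in NC batch 1, at 0 in both NC batch 2 libraries and at 3.70 to 4.89 CPM in I3-E3-SRS. The fitted batch difference was -7.69 in unexposed and 1.24 in exposed cells, each from its own fit. In a further fit, of all 20 libraries, the difference of the batch effects was -9.03 on the log2 scale (edgeR interaction test, adjusted p = 0.0255), a fitted value that depends on the prior count because NC batch 2 held no reads. It was the only one of 12830 genes tested that passed, while 567 had an unadjusted p under 0.05, and laser setting and batch cannot be told apart in the exposed comparison.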

How the results depend on the processing

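The count of 1733 genes was 462 to 2243 when 1 library was left out, 360 with a required 2-fold difference and 468 at an adjusted p under 0.01. With the replicate number as a block, 832 genes passed (503 higher and 329 lower), and whether the numbers pair samples is not known. Under the other alternatives, which were scaling, filters, limma-voom, limma-trend with and without a trend on length or GC removed, DESeq2, larger fits, genes with words of their own and summed families, the count was 1197 to 2266. The exposed comparison gave 2052 genes against I2-E2 alone and 2596 to 2664 without 1 I3-E3-SRS library. Of 2422 values of the 138 named genes under alternatives, 2231 kept direction and side of the threshold, 184 no longer passed, 6 newly passed and 1 turned: Pecam1, an endothelial marker that never passed, was at -0.049 without NC batch 2 replicate 1 and reached 0.28 without replicate 2. With a trend on GC content removed, 21 of 24 cholesterol, 8 of 15 fatty acid, 18 of 27 NRF2 and 11 of 39 ATF4 genes rose and none fell, and the medians of 20 of 36 lists moved by more than the spread between replicates. The cause of these shifts was not tested. With 2 libraries in a group and 3 in the other, the test recovered few small differences, so a gene that did not pass may still differ.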
